A study of Homo sapiens with 6 samples.

Results

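The genes of the collagen IV chains and of their main basement membrane partners were followed in MCF10A cells with and without C/EBPbeta-2. The members were 10 genes named by family: the 6 collagen IV chain genes COL4A1 to COL4A6, the nidogens NID1 and NID2, the perlecan gene HSPG2 and the laminin chain gene LAMA5. They were read at all 26 probe sets whose single annotated symbol was one of these genes, of 54613 probe sets tested, and 19 of the 26 belonged to the collagen IV chains. With 1 probe set per gene, the brightest over all arrays, they were 10 of 19775 genes. One further probe set, annotated to LAMA5 together with another gene, was not used.

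MCF10A cells are immortal, non-tumorigenic epithelial cells of human breast. The tested arrays were 3 labelled as MCF10A cells with C/EBPbeta-2 (one of the protein forms made from CEBPB, a leucine zipper transcription factor gene), and the comparison arrays were 3 of MCF10A cells alone, called control. Both groups shared 1 culture medium, which held epidermal growth factor at 10 ng/ml, cholera toxin at 100 ng/ml, insulin at 10 µg/ml, hydrocortisone at 0.5 µg/ml and horse serum at 5%. The labels give neither the way in which C/EBPbeta-2 was introduced nor whether the cells were a pool or a clone. They call the replicates biological but do not say how these were kept apart, and the p-values therefore cover only the spread among these 6 samples, which may be technical.

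Collagen IV is the network-forming collagen of basement membranes, the thin matrix sheets on which epithelia sit. Its chains assemble in the cell into triple helices of fixed composition. The COL4A1 and COL4A2 chains build the helix found in nearly all basement membranes, the COL4A3, COL4A4 and COL4A5 chains that of the kidney glomerulus, lung and inner ear, and the COL4A5 and COL4A6 chains that of skin, smooth muscle and some epithelia. Nidogens bridge the laminin and collagen IV networks, perlecan is a large heparan sulfate proteoglycan that binds both, and the LAMA5 chain is part of the laminins of many mature epithelial basement membranes.

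The collagen IV genes lie head to head in 3 pairs, each pair read outwards in opposite directions. In RefSeq coordinates of GRCh38.p14, which are not the coordinates of the array design, COL4A1 (chromosome 13, 110148963 to 110307157, minus strand) and COL4A2 (110307284 to 110513209, plus strand) have 126 bases between their outermost starts. COL4A4 and COL4A3 on chromosome 2 have 135 bases between them. COL4A6 (chromosome X, 108155614 to 108439458, minus strand) and COL4A5 (108439838 to 108697545, plus strand) have 379. The bases between COL4A1 and COL4A2 and the 250 bases before the COL4A6 start are shown because the higher and the lower chains of the results came from these loci. Both are credited to RefSeq, and the capitals mark matches to the motifs searched.
COL4A1-COL4A2, chr13:110307158-110307283, plus strand: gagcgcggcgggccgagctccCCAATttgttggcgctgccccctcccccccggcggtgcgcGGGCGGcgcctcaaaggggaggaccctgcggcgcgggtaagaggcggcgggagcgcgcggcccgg
COL4A6, chrX:108439459-108439708, minus strand: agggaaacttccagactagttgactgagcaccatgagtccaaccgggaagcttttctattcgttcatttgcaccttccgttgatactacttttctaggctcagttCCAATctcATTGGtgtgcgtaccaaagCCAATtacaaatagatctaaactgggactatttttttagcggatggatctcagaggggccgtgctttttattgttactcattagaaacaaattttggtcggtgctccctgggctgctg

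The stretch between COL4A1 and COL4A2 was 80.2% G and C with 20 CpG pairs, and that before COL4A6 was 44.0% with 7. Windows of 300 bases, 250 before and 50 after each start, were searched on both strands for the CCAAT box (CCAAT), the GC box (GGGCGG), the TATA box (TATAAA), a C/EBP-like element (TTGCNNAA) and an AP-1-like element (TGANTCA). Of 35116 windows in the table, 34.6% held CCAAT, 45.0% GGGCGG, 11.5% TATAAA, 10.5% TTGCNNAA and 7.71% TGANTCA. All 10 members matched a window, and COL4A6 had a window at each of 2 starts. The COL4A4 window was set on a start at 227164205, inside the outermost start at 227164488. It therefore did not reach the bases between COL4A4 and COL4A3. The stretch between COL4A1 and COL4A2 held 1 CCAAT, beginning 105 bases before the COL4A2 start, and 1 GGGCGG, beginning 65 bases before it. The COL4A6 stretch held 3 CCAAT matches and no GGGCGG. Its first CCAAT pair, on opposite strands, began 145 and 137 bases before the COL4A6 start. The same pair also lay in the COL4A5 window, in that order 239 and 247 bases before the COL4A5 start. The window at the second COL4A6 start, 108438422, held 0 CCAAT and 1 GGGCGG, beginning 45 bases before that start. Which COL4A6 start was in use was not tested. The windows of HSPG2 and LAMA5 were 83.3% and 82.7% G and C and held 10 and 5 GGGCGG matches. The TATA box, the C/EBP-like and the AP-1-like letters were in none of the members' windows, which says only that these letters are not in them.

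The deposited values were probe set intensities processed by the authors with RMA, and all values below are their log2, so 1 unit is a doubling of intensity. The 6 array medians were 4.46 to 4.56. Probes differ in brightness, so levels were compared between arrays and never between genes, and no detection calls were used. Of the 26 probe sets, 9 read above the array median on all 6 arrays, 15 under it on all 6 and 2 on either side. The poly-A spike-in probe sets had a mean of 3.85 (C/EBPbeta-2 replicate 2) and 3.98 (control replicate 1) on a pair of arrays but of 7.21 to 8.25 elsewhere, and differences within each spike-in level are given beside the members they touch. Of 7 measured markers of basal mammary epithelium, 7 read above the array median on all arrays, and KRT14 (8.03-fold lower, limma adjusted p = 0.0347) and CDH1 (4.41-fold lower, adjusted p = 0.0282) fell with C/EBPbeta-2, where 0.167% of all genes were called lower. The other 5 were not called, with log2 differences of -0.51 for ITGB4, -0.13 for KRT5, 0.10 for SFN, 0.09 for KRT18 and 0.03 for EPCAM. CEBPB itself (212501_at) averaged 10.72 ± 0.58 with C/EBPbeta-2 and 11.34 ± 0.06 in control (SD, n = 3 each; limma adjusted p = 1), so this probe set did not check the labels.

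With C/EBPbeta-2, 1 of the 10 genes was called: COL4A6, which read 5.65-fold lower at its brightest probe set. No member was called higher. By limma with p adjusted over all genes and a threshold of 0.05, 0.167% of the 19775 genes were called lower and 0.0961% higher. COL4A5, the neighbour of COL4A6, read 2.17-fold lower, and COL4A1 and COL4A2 read 2.66-fold and 2.32-fold higher, all uncalled. COL4A3, COL4A4 and NID2 were dim. NID1 lay near the array medians at its brightest probe set and under them at its others. HSPG2 and LAMA5 were bright at their brightest probe sets, with differences inside the spread between arrays.

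**Figure D1:**
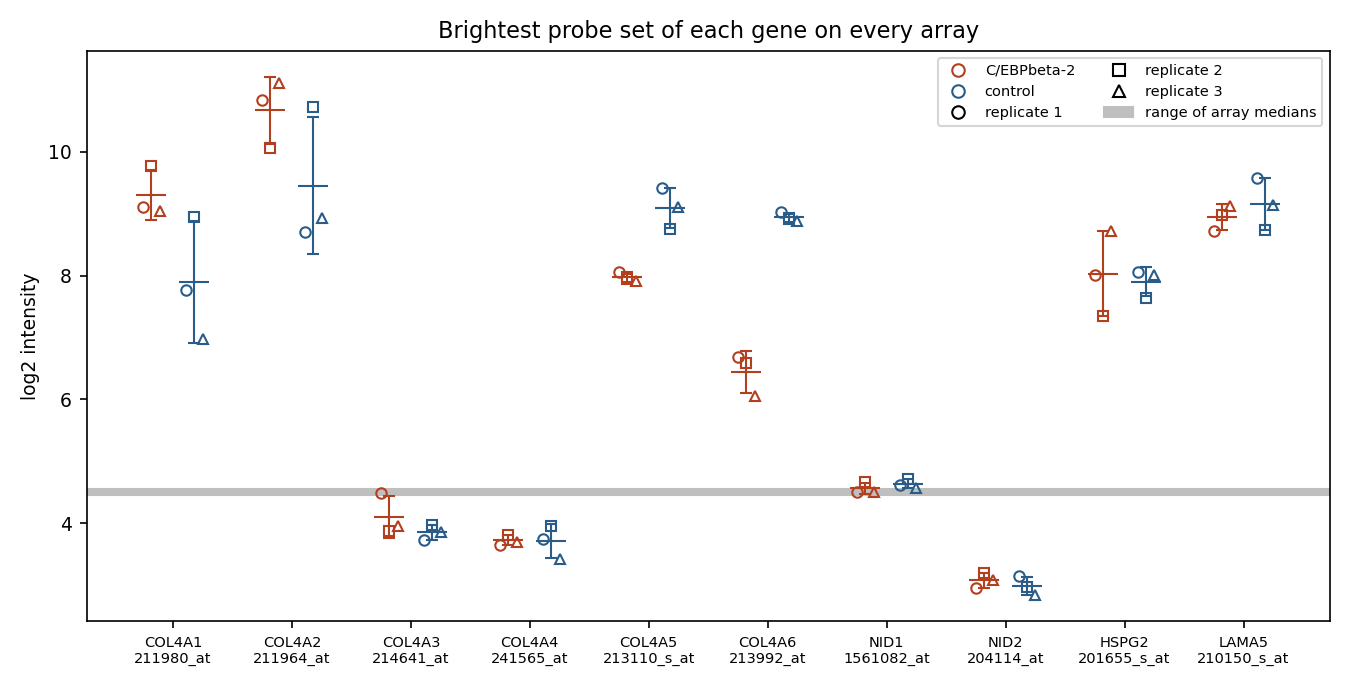
Log2 intensity of the brightest probe set of each of the 10 genes (x axis) on every array, with C/EBPbeta-2 arrays left of control arrays, bars for the mean ± SD of 3 arrays and a grey band for the range of array medians (4.46 to 4.56). The C/EBPbeta-2 arrays lie below all control arrays for COL4A5 and COL4A6 and above them for COL4A1, and the other 7 genes overlap.

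COL4A6 encodes the chain that pairs with COL4A5 in a helix of epithelial and smooth muscle basement membranes. Its brightest probe set, 213992_at, read 6.68, 6.59 and 6.06 on the C/EBPbeta-2 arrays, against 9.02, 8.92 and 8.89 on the control arrays. The groups did not overlap, and the 3 control arrays lay closer together than the C/EBPbeta-2 arrays. The log2 difference was -2.50 (SE 0.20, 95% confidence interval -2.98 to -2.01, limma adjusted p = 0.0132 over all genes). Its p adjusted over all probe sets was 0.0258, and 1 of the 26 member probe sets was called lower at that threshold, where 0.0385% of all probe sets were lower, 0.0275% higher and 0.0659% either. The difference was -2.44 between the arrays with low spike-in RNA (1 array per group) and -2.53 between those with high spike-in RNA (2 per group). The limma adjusted p was 0.0547 without C/EBPbeta-2 replicate 2, 0.0775 without control replicate 1 and 0.0920 without control replicate 3, so the call was lost. It rose whichever array was left out (0.0371 to 0.0920), while the difference stayed between -2.31 and -2.62. Whether these arrays or the smaller number of arrays decided the call was not tested.

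The other COL4A6 probe sets read the fall differently. The second, 211473_s_at, read 4.98, 5.03 and 5.29 with C/EBPbeta-2 and 6.98, 6.21 and 6.69 in control. These groups were also apart, with a smaller log2 difference of -1.53 (SE 0.23) that was not called (limma adjusted p = 0.145 over all probe sets). The suffix _s_at marks probe sets whose probes can match several transcripts. The third, 210945_at, stayed under the array medians on all arrays, at 3.39, 3.33 and 3.08 with C/EBPbeta-2 and 3.96, 3.07 and 3.13 in control. It overlapped between groups, with a difference of -0.12 (95% confidence interval -0.76 to 0.53). With the mean of its 3 probe sets COL4A6 differed by -1.38 and was not called (limma adjusted p = 0.0572).

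COL4A5, whose chain takes part in both of the tissue-restricted helices, was lower in all 3 C/EBPbeta-2 arrays. Probe set 213110_s_at read 8.06, 7.95 and 7.91 with C/EBPbeta-2 and 9.42, 8.76 and 9.10 in control. The C/EBPbeta-2 arrays were nearly alike, and the lowest control array stood clear of the highest of them. The log2 difference was -1.12 (SE 0.20, 95% confidence interval -1.60 to -0.64) and was not called (limma adjusted p = 0.161 over all genes). It was -1.47 at the low spike-in level and -0.95 at the high one. It was called with arrays weighted by quality (adjusted p = 0.0374, in a range of 0.0374 to 1 over 17 alternatives). The other COL4A5 probe set, 234387_at, lay under the array medians on all arrays, between 3.28 and 3.61 with C/EBPbeta-2 and between 3.39 and 3.99 in control, with a difference of -0.19 (95% confidence interval -0.68 to 0.31).

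COL4A1 and COL4A2, the chains of the widespread helix, read higher at all 4 of their probe sets, and none was called. COL4A1 at 211980_at read 9.11, 9.77 and 9.05 with C/EBPbeta-2 and 7.77, 8.94 and 6.98 in control. All C/EBPbeta-2 arrays were above all control arrays, but control replicate 2 lay just below the lowest of them. The log2 difference was 1.41 (SE 0.50, 95% confidence interval 0.22 to 2.60, limma adjusted p = 0.731 over all genes). At 211981_at the values were 7.92, 8.45 and 7.45 with C/EBPbeta-2 and 6.69, 7.13 and 5.81 in control, again without overlap, and the difference was 1.40 (SE 0.40, adjusted p = 0.751 over all probe sets).

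COL4A2 at 211964_at read 10.84, 10.07 and 11.11 with C/EBPbeta-2 and 8.71, 10.72 and 8.94 in control. The groups overlapped, because control replicate 2 read above C/EBPbeta-2 replicate 2. The log2 difference was 1.22 (SE 0.57, 95% confidence interval -0.14 to 2.58, limma adjusted p = 1 over all genes). At 211966_at COL4A2 read 7.29, 6.96 and 8.03 with C/EBPbeta-2 and 5.64, 6.91 and 6.15 in control, a difference of 1.19 (SE 0.40, adjusted p = 0.984 over all probe sets). These groups were apart, with control replicate 2 just under the lowest C/EBPbeta-2 array. Control replicate 2 was thus the highest control array at all 4 probe sets. Without it the COL4A1 difference was 1.93 (adjusted p = 0.164) and the COL4A2 difference 1.85 (adjusted p = 0.173). Without control replicate 3 they were 0.95 and 0.96 (adjusted p = 1 for each). At the low spike-in level COL4A1 differed by 2.00 and COL4A2 by 1.35, and at the high one by 1.12 and 1.15. The 18S ribosomal RNA signal also varied, reaching 12.19 in C/EBPbeta-2 replicate 1 and 12.17 in control replicate 2 but 5.62 to 10.33 in the other 4 arrays. Without the 2 arrays highest in it COL4A1 differed by 2.03 (adjusted p = 0.341) and COL4A2 by 1.76 (adjusted p = 0.410), and the part of 18S signal or spike-in RNA in these differences was not tested.

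**Figure D2:**
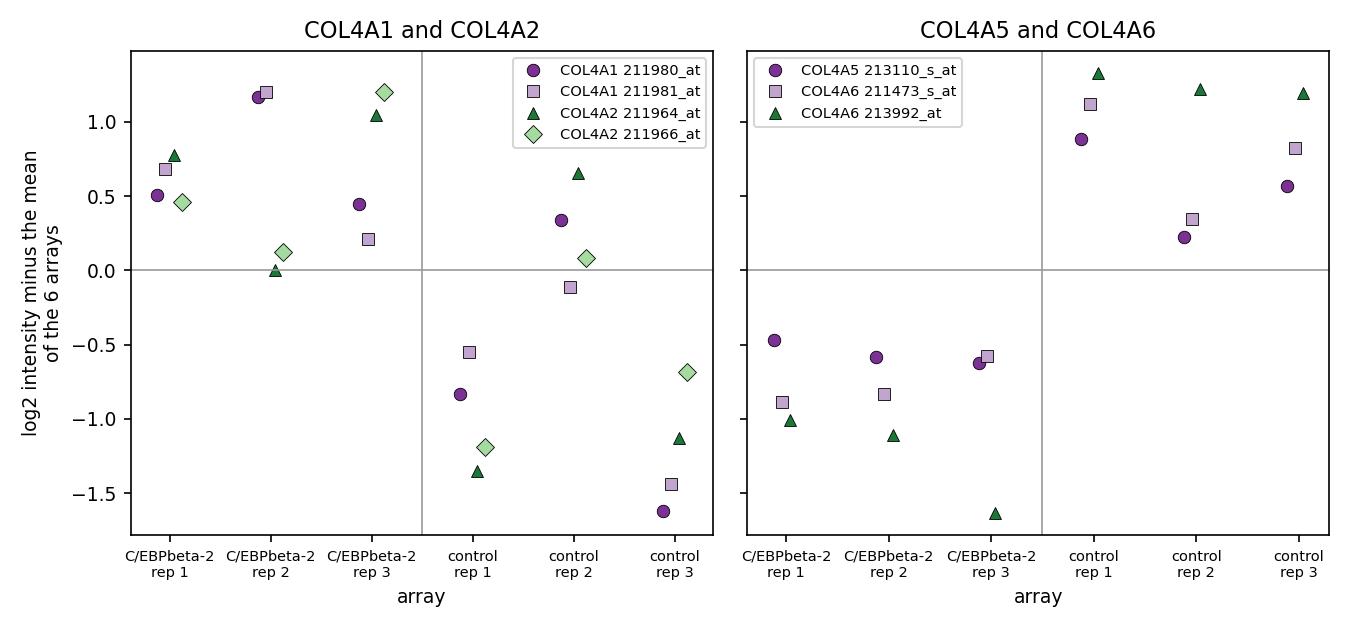
Log2 intensity minus the mean of the 6 arrays (y axis) on each array (x axis, C/EBPbeta-2 left of control) for the probe sets above the array medians of COL4A1 and COL4A2 (left panel) and of COL4A5 and COL4A6 (right panel). Control replicate 2 lies near the C/EBPbeta-2 arrays in the left panel, and the groups are apart at all 3 probe sets in the right panel.

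The members of a head-to-head pair were set against each other by the root mean square difference between their deviations from their own 6-array means, a description of these arrays with no test. COL4A2 was 0.63 log2 units from COL4A1, rank 144 among 19774 other genes, where the median gene was 0.95 away. COL4A5 was 0.73 from COL4A6, rank 113, with a median of 1.30. Seen from COL4A5, which moved less, COL4A6 was rank 13321. COL4A4 was rank 8113 from COL4A3, both dim. Among 9881 non-member genes brighter than the median gene, those nearest to the COL4A1 pattern were HSPB8 (0.30), a small heat shock protein, MAN1A1 (0.31), a mannosidase of N-glycan trimming, and DDAH1 (0.37), which breaks down methylated arginines. HSPB8 averaged 7.07 ± 0.44 with C/EBPbeta-2 and 5.56 ± 0.58 in control (SD, n = 3 each). The genes nearest to NID1, whose pattern was nearly flat, were DHX33, LCLAT1 and C2orf81, each within 0.05.

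COL4A3 and COL4A4, the chains best known from the kidney glomerulus, were dim and none of their probe sets was called. All 7 COL4A3 probe sets lay under the array medians on all arrays, between 2.56 and 4.49, and their log2 differences ran from -0.30 to 0.38. The brightest, 214641_at, read 4.49, 3.87 and 3.95 with C/EBPbeta-2 and 3.73, 3.97 and 3.86 in control (difference 0.25, 95% confidence interval -0.24 to 0.75). Its groups overlapped, with C/EBPbeta-2 replicate 1 alone above the rest. At 216898_s_at the groups were apart the other way, at 3.09, 3.10 and 3.05 with C/EBPbeta-2 and 3.24, 3.42 and 3.47 in control, a difference of -0.30 between values far under the array medians. The 3 COL4A4 probe sets also lay under the medians, between 2.73 and 4.23, with differences of 0.02 to 0.30. The brightest, 241565_at, averaged 3.72 ± 0.08 with C/EBPbeta-2 and 3.71 ± 0.27 in control (SD, n = 3 each). The limma adjusted p was 1 for each of these 10 probe sets.

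Neither nidogen read far above the array medians. NID1 at 1561082_at read 4.51, 4.67 and 4.51 with C/EBPbeta-2 and 4.62, 4.72 and 4.57 in control, at the level of the array medians. The groups overlapped, and the log2 difference of -0.07 had a 95% confidence interval of -0.41 to 0.27. Probe set 202007_at of NID1 was lower in all C/EBPbeta-2 arrays, at 2.54, 2.55 and 2.72 against 2.83, 2.86 and 2.83 in control, but far under the array medians and not called (difference -0.24, limma adjusted p = 1 over all probe sets). The third, 202008_s_at, lay between 3.03 and 3.31, under the array medians on all arrays, and differed by -0.01. NID2 (204114_at) read 2.95, 3.20 and 3.09 with C/EBPbeta-2 and 3.15, 2.96 and 2.85 in control. Its groups overlapped, with a difference of 0.09 (95% confidence interval -0.29 to 0.47).

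HSPG2 and LAMA5 were well above the array medians at their brightest probe sets in both groups. HSPG2 at 201655_s_at read 8.01, 7.36 and 8.73 with C/EBPbeta-2 and 8.06, 7.64 and 8.01 in control. The C/EBPbeta-2 arrays spread on both sides of the control arrays, and the log2 difference was 0.13 (95% confidence interval -0.71 to 0.97, limma adjusted p = 1). It was -0.70 at the low spike-in level and 0.54 at the high one. Its dimmer probe set, 201654_s_at, differed by 0.06. LAMA5 at 210150_s_at read 8.72, 8.99 and 9.13 with C/EBPbeta-2 and 9.58, 8.74 and 9.15 in control. These groups overlapped too, with a difference of -0.21 (95% confidence interval -0.80 to 0.39), and control replicate 1 was the highest array. The difference was -0.59 at the low spike-in level and -0.02 at the high one. The intervals of HSPG2 and LAMA5 leave room for differences of over 1.5-fold in at least one direction, so they do not show equal levels.

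**Figure D3:**
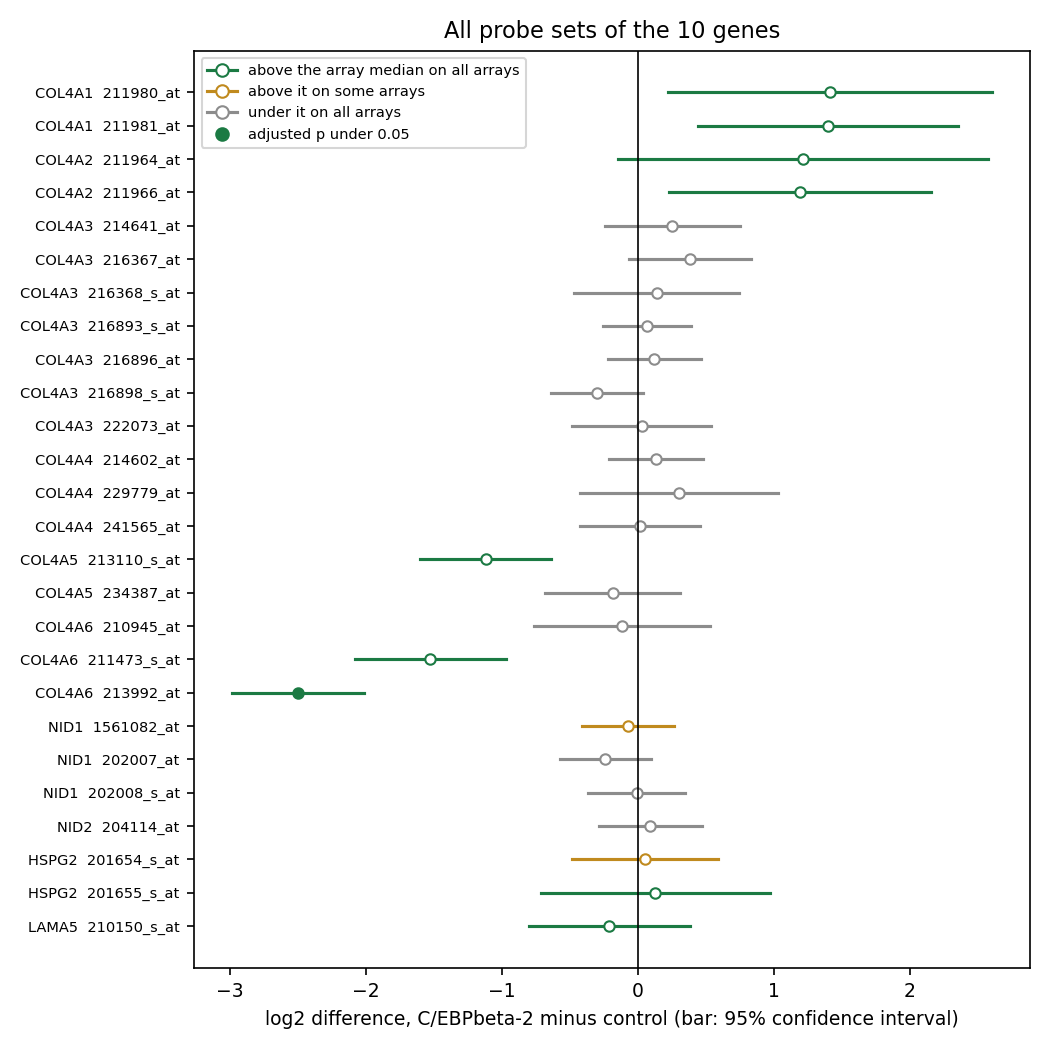
Log2 difference, C/EBPbeta-2 minus control (x axis), with its 95% confidence interval for all 26 probe sets (y axis), coloured by whether a probe set read above the array median on all, some or no arrays, and filled where the adjusted p over all probe sets was under 0.05. Only 213992_at of COL4A6 is filled, at -2.50, and the 15 probe sets under the median on all arrays lie within -0.30 and 0.38.

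Counted over the 26 probe sets, the C/EBPbeta-2 arrays lay above all control arrays at 3 (all in COL4A1 or COL4A2) and below all control arrays at 5. Over all probe sets 3.87% were apart in the higher and 3.75% in the lower direction. Of the 10 genes at their brightest probe sets, 1 was apart higher and 2 lower, where 4.62% and 4.01% of all genes were, 8.63% in either direction. At an unadjusted p under 0.05 limma had 3 of the 10 genes, COL4A1, COL4A5 and COL4A6, and 5.40% of all genes. The median log2 difference was 0.05 over the 10 genes and 0.01 over all genes.

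Genes that make, bind or cut the collagen IV network were not called. In 6 companion lists limma called 0 of 105 measured genes, against 0.263% of all genes, a share so low that 0 calls say little. At an unadjusted p under 0.05 limma had 12 higher and 4 lower, where 5.40% of all genes were in either direction. That share stands beside each such list and marker count below. Without control replicate 2 the counts were 8 higher and 10 lower, with 1378 of all genes, so the balance depended on that array. The median log2 difference of the 105 was 0.05, and 0.13 without that array. Of 9 measured laminin chains 0 were called and 1 was higher at an unadjusted p under 0.05 (list median -0.05). LAMB3, a chain of the epithelial anchoring laminin, averaged 11.57 ± 0.67 with C/EBPbeta-2 and 10.40 ± 0.67 in control (SD, n = 3 each; limma adjusted p = 0.831). LAMB1, a chain of several other laminins, differed by -0.77 and LAMA1 by 0.54.

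Of 26 other basement membrane and anchoring proteins 0 were called, with 2 higher and 2 lower at an unadjusted p under 0.05 (list median 0.02). They held the widest differences. EFEMP1, a fibulin of the extracellular matrix, read 6.69, 9.23 and 6.49 with C/EBPbeta-2 and 11.75, 10.59 and 10.50 in control. The groups were apart, but the C/EBPbeta-2 arrays differed widely among themselves (log2 difference -3.48, SE 0.77, limma adjusted p = 0.270). It was called with a term for spike-in RNA (adjusted p = 0.0212) and without the arrays low in it (0.0317). SPARC, a matrix protein that binds collagens including collagen IV, read 8.70, 9.57 and 9.50 with C/EBPbeta-2 and 7.85, 6.35 and 5.98 in control. Its groups were apart as well (difference 2.53, SE 0.51, limma adjusted p = 0.216). NTN4, a netrin that binds laminin chains, differed by -1.37 (SE 0.84).

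Of 29 genes of collagen IV synthesis, secretion and crosslinking 0 were called, with 3 higher and 1 lower at an unadjusted p under 0.05 (list median 0.00083). P3H2, a prolyl hydroxylase that acts on collagen IV, read 10.51, 10.87 and 10.57 with C/EBPbeta-2 and 9.50, 9.55 and 9.67 in control. All C/EBPbeta-2 arrays were above all control arrays, and the difference of 1.07 (SE 0.16) missed the threshold (limma adjusted p = 0.0897) and was called with array weights (0.0429). P4HA1, a catalytic subunit of the enzyme whose hydroxyprolines stabilise the collagen helix, differed by 0.85, and LOXL1, a lysyl oxidase known for elastic fibres, by -0.77.

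Of 16 measured receptors of collagen IV, laminin and perlecan limma called 0, with 3 higher and 0 lower at an unadjusted p under 0.05, and the list median was 0.29. ITGA1, the alpha subunit of an integrin that binds collagen IV, read 5.41, 6.17 and 6.29 with C/EBPbeta-2 and 5.13, 3.99 and 4.30 in control (difference 1.49, SE 0.36, limma adjusted p = 0.348). The groups were apart. The syndecan SDC1 differed by 1.03 and the collagen-binding integrin subunit ITGA2 by 0.81. Among 13 collagens of the list of interstitial and other non-collagen IV types, some of which also occur at basement membranes, limma called 0 with 1 higher at an unadjusted p under 0.05, and the widest differences were in COL16A1 (1.10), COL12A1 (-0.88) and COL8A1 (0.74).

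Among 12 proteases that can cleave collagen IV limma called 0, with 2 higher and 1 lower at an unadjusted p under 0.05 (list median -0.09). CTSB, the lysosomal protease cathepsin B, read 11.82, 11.54 and 11.85 with C/EBPbeta-2 and 10.41, 10.75 and 10.60 in control. The groups were apart by more than the spread within either, and the difference of 1.15 (SE 0.17, limma adjusted p = 0.0838) was called with array weights (0.0302). PLAU, the urokinase activator of plasminogen, differed by 1.72 (SE 0.75), and PLAT, the tissue activator, by -1.02 (SE 0.47).

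**Figure D4:**
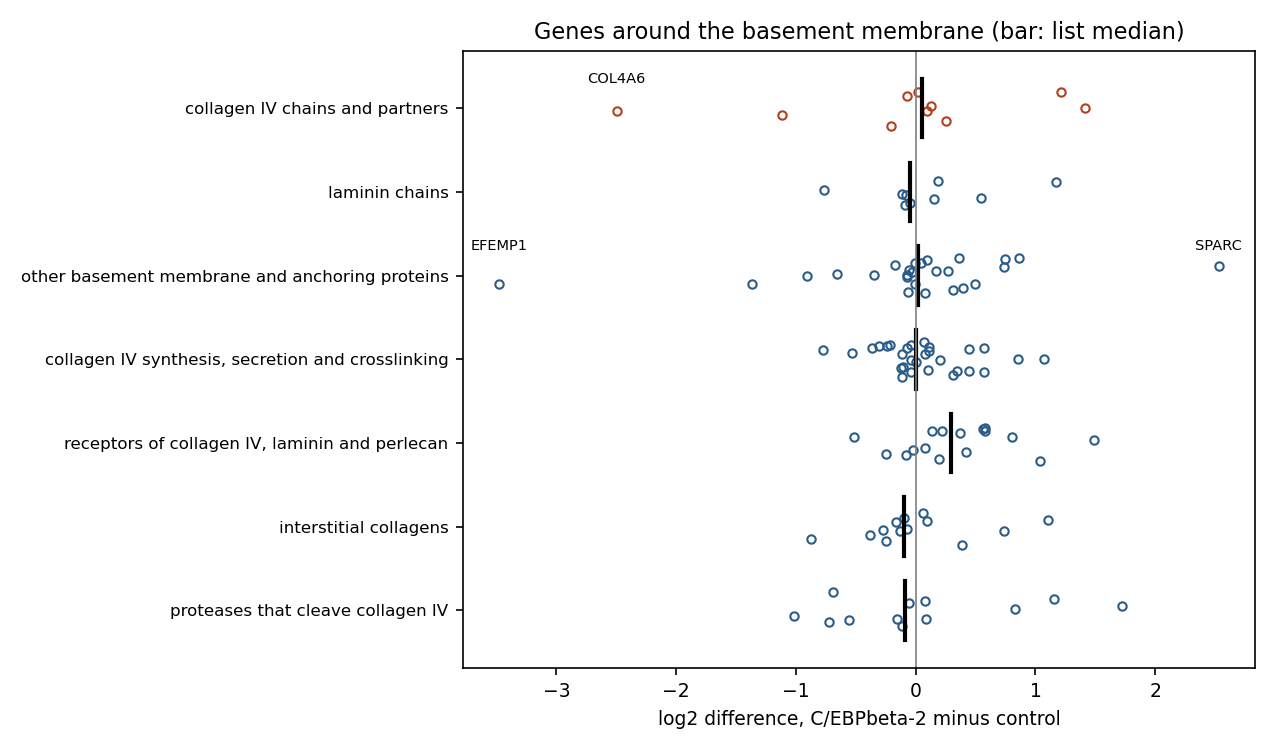
Log2 difference, C/EBPbeta-2 minus control (x axis), of each measured gene in the collagen IV group and in 6 companion lists (y axis), with a bar at each list's median and names for genes beyond 2 units either way. COL4A6 is the only called gene among them, and EFEMP1 (-3.48) and SPARC (2.53) lie farthest out without being called.

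Endothelial cells, fibroblasts and pericytes also make collagen IV, and their markers were read beside these results. All 6 samples are labelled as MCF10A cells, and no label names another cell type. The marker values are therefore given as levels of these genes in the cultures, not as shares of cell types. In bulk RNA, a change in the mix of cells and a change in RNA per cell cannot be told apart. Of 10 endothelial markers limma called 0 with 1 lower at an unadjusted p under 0.05 (KDR, difference -0.68), and their mean log2 level was 4.11 to 4.47 over the C/EBPbeta-2 arrays and 4.21 to 4.66 over the control arrays. Of the 10, TIE1, VWF and CDH5 lay under the array medians on all arrays, PECAM1 and EGFL7 above them on all, and the other 5 on either side. Of 10 fibroblast and pericyte markers limma called 0 with 1 lower at an unadjusted p under 0.05, and their mean level was 4.53 to 4.93 with C/EBPbeta-2 and 4.76 to 5.14 in control. That 1 was DCN, which averaged 7.55 ± 0.55 with C/EBPbeta-2 and 10.16 ± 1.44 in control (SD, n = 3 each; limma adjusted p = 0.445). DCN, RGS5, THY1 and COL1A1 lay above the array medians on all arrays, PDGFRA, CSPG4 and LUM under them on all, and the other 3 on either side. Of 6 leukocyte markers limma called 0 with 1 higher at an unadjusted p under 0.05, CD14 (difference 0.92), and their mean level was 4.43 to 4.79 with C/EBPbeta-2 and 4.32 to 4.51 in control. CD14 lay above the array medians on all arrays, PTPRC and LYZ under them on all, and the other 3 on either side. The part of these markers in the collagen IV results was not tested.

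The called fall of COL4A6 and the uncalled differences of COL4A1, COL4A2 and COL4A5 kept their signs under all 17 alternatives with a test. Several of these could not turn a sign. The replicate block, the prior variance and the dim filter left these differences unchanged. Leaving out 1 array cannot turn the sign where the groups are apart, as in COL4A1, COL4A5 and COL4A6. Over all 17 alternatives COL4A6 ranged from -2.63 to -1.38, COL4A5 from -1.33 to -0.19, COL4A1 from 0.95 to 2.03 and COL4A2 from 0.84 to 1.85. The -0.19 of COL4A5 came without _x_at and _s_at probe sets. There the gene was read at 234387_at, which lay under the array medians on all arrays, so its sign says little. COL4A6 was called in 10 of the 17 (adjusted p 0.00593 to 0.191), COL4A5 in 1, and COL4A1 and COL4A2 in 0.

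**Figure D5:**
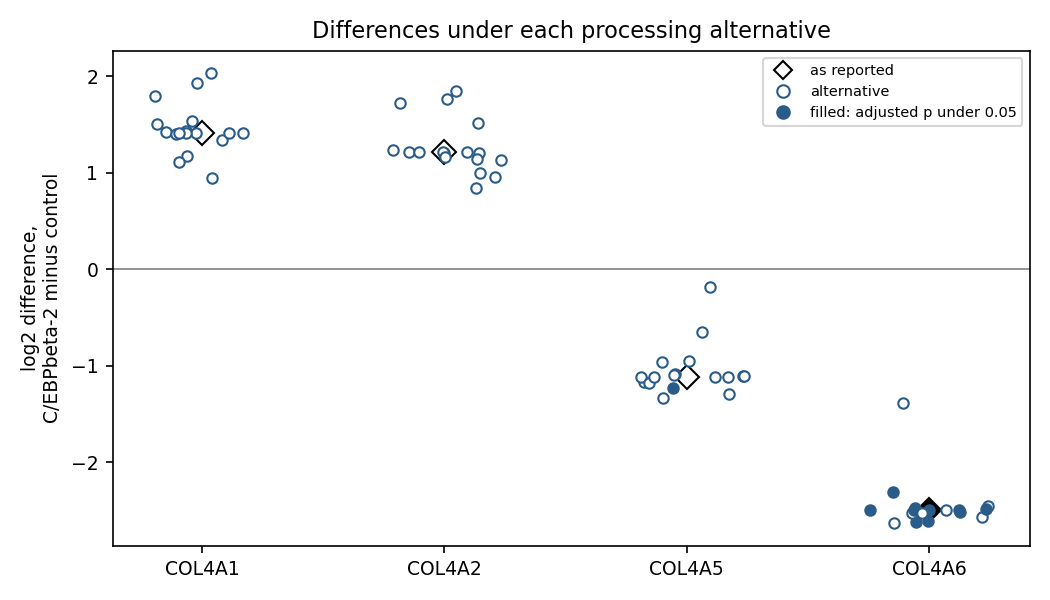
Log2 difference, C/EBPbeta-2 minus control (y axis), of COL4A1, COL4A2, COL4A5 and COL4A6 (x axis) as reported (diamonds) and under each of 17 alternatives (circles), filled where the adjusted p over all genes was under 0.05. COL4A6 is filled as reported and in 10 alternatives, and all points of a gene lie on the same side of 0.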

How the data were processed

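Gene expression was measured on Affymetrix arrays, 1 per sample, in 3 samples of MCF10A cells with C/EBPbeta-2 and 3 control samples, grouped by their titles. The authors deposited 1 intensity per probe set and array, and RMA is named, with no version, per the submitters' processing notes. The deposited intensities were linear (4.17 to 17825, array medians 4.46 to 4.56 on the log2 scale); no label says how RMA values came to be linear, and detection calls were not used. The number of arrays limits the precision.

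Intensities were transformed to log2 with no pseudocount or further normalization. The 62 control probe sets were set aside. Of 54613 tested, 41091 had 1 gene symbol, 1801 several (not named) and 11721 none, and 41037 matched RefSeq by gene ID. Each gene stood for its brightest probe set. One limma 3.58.1 model (lmFit, eBayes, R 4.3.3) compared C/EBPbeta-2 minus control, two-sided, with Benjamini-Hochberg adjustment over all probe sets or all genes, and was tested on simulated data. Python 3.11.15 with pandas 2.3.3, numpy 2.4.6 and matplotlib 3.10.9 read promoters and drew figures.

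The members and lists were chosen with earlier results of these data known. Named genes were all members, up to 3 genes with the largest difference and every called gene of each companion or marker list, the 3 genes nearest in pattern to COL4A1 and to NID1, and CEBPB; further marker genes were named after their values were seen. List genes without a probe set to themselves are not analysed here. Alternatives were to leave out each array, to add a replicate block, spike-in term or array weights, and to change normalization, the dim filter (mean log2 under 4.52), the prior variance and the probe sets read.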

Additional observations from a re-analysis of the deposited data

How the results depend on the processing

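Without 1 array the number of called genes was 7 to 57 (52 with all arrays) and of called probe sets 5 to 37 (36), with 0 to 1 member and 0 to 0 companion genes called. Companion genes higher and lower at an unadjusted p under 0.05 numbered 10 and 6 after quantile normalization and 9 and 6 with the spike-in term. All genes at that p numbered 1105 and 1315. The replicate block gave 0 probe sets, 0 genes and 0 members in limma, with 1701, 847 and 3 at an unadjusted p under 0.05. Same-numbered samples deviated from their group means with correlations of -0.45, -0.55 and 0.42, against -0.42 to 0.66 for the differently numbered pairs. The highest were 0.66 for C/EBPbeta-2 replicate 2 with control replicate 1, the low spike-in arrays. Next was 0.64 for C/EBPbeta-2 replicate 1 with control replicate 2, the arrays highest in 18S signal. With 3 arrays per group and these array differences, the correlations cannot decide whether the numbers pair the samples. Leaving out dim probe sets gave 78 probe sets, a trended and robust prior 67, and array weights 122 probe sets, 122 genes, 2 members and 2 companion genes. The spike-in term gave 1 companion gene, and averaging all probe sets of a gene 0 members. With that averaging 4 members and 1013 genes were at an unadjusted p under 0.05. Chosen after seeing the data, leaving out the low spike-in arrays gave 6 probe sets, 13 genes, 0 members and 1 companion gene. It had 2 members and 740 genes at an unadjusted p under 0.05. Leaving out the arrays with the highest 18S level gave 0 probe sets, 0 genes and 0 members, with 2856, 1393 and 4 at an unadjusted p under 0.05. Both leave 2 arrays per group, and beyond that the cause of these moves was not tested. COL4A6 lost its call under the block (-2.50, adjusted p = 0.157), with the mean of its probe sets (-1.38) and without the low spike-in arrays (-2.53) or the high 18S arrays (-2.63). Signs turned for COL4A4 (-0.13 to 0.14 without 1 array, -0.0092 without the low spike-in arrays), HSPG2 (-0.22 to 0.47 without 1 array) and LAMA5 (-0.42 to 0.0025 without 1 array), all uncalled. Of the 10 genes, 3 were apart between groups, 2 after quantile normalization and 4 with arrays centred. Low signal limits COL4A3, COL4A4, NID2 and the dimmer NID1 probe sets, 202007_at and 202008_s_at. COL4A3, COL4A4 and NID2 gave no value without dim probe sets, and HSPG2 and LAMA5 none without _s_at probe sets.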
